A study of Mus musculus with 4 samples.

Results

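Wt1, Tcf21, Lmx1b, Foxc1, Foxc2 and Dach1 encode transcription factors that act in podocyte development, and several of them are also made by nephron progenitors or by stroma. They were followed through every probe set that the platform annotation pairs with 1 of these 6 genes alone, which gave 11 of the 45101 probe sets on the array, for 6 of the 18194 genes so paired. The RNA on the 4 Mouse430_2 arrays came from whole embryonic mouse kidneys of stage E14.5 (Theiler stage 22). The 2 Wnt4-null arrays held kidneys carrying the null allele Wnt4tm1Amc, each array a pool of 12 kidneys, with the stated strain 129. The 2 wild-type arrays each held a pool of 2 kidneys with the stated strain CD-1. Genotype, stated strain and pool size changed together and cannot be told apart. The protocol text of all 4 arrays speaks of CD-1 matings, so the background of the mutants is uncertain. The labels do not name the litters behind each pool, and p-values rest on spread between pools alone. Embryos of either sex may be in the pools, since the sex was given as unknown.

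Podocytes are the epithelial cells that wrap the capillaries of the glomerulus and hold back protein with a slit diaphragm between their foot processes. They form at the proximal end of the S-shaped body, which itself grows from the renal vesicle. Wnt4 is a secreted signal that turns condensed mesenchyme into that vesicle. Wt1 is a zinc finger protein needed in nephron progenitors and again in podocytes. Tcf21, a basic helix-loop-helix protein also called Pod1, is made by stroma and condensing mesenchyme as well as by podocytes. Lmx1b is a LIM-homeodomain protein whose loss in humans causes nail-patella syndrome. Foxc1 and Foxc2 are closely related forkhead proteins of mesoderm, and Dach1 is a corepressor of the Dachshund family.

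Sequence upstream of the members that passed the test is shown for reference, from RefSeq windows of build GRCm38.p6, which hold 250 bases before and 50 bases after each annotated start. Windows of 4 members (Tcf21, Lmx1b, Foxc1 and Dach1) were used. The 250 upstream bases of Foxc1 (chr13:31806396-31806645, plus strand) and of Dach1 (chr14:98169766-98170015, minus strand) are given 5′ to 3′ in lower case. The Dach1 site spans 29 bases around its annotated start (chr14:98169738-98169766, minus strand), with a match to the core sequence of TCF/LEF factors in capitals. That match begins at base 11 after the start, inside the transcribed part and not upstream.
Foxc1 upstream: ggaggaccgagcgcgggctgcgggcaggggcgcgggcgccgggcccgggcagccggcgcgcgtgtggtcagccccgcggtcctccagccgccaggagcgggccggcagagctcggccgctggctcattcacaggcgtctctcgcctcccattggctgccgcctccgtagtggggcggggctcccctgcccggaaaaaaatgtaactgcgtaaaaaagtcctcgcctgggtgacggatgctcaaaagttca
Dach1 upstream: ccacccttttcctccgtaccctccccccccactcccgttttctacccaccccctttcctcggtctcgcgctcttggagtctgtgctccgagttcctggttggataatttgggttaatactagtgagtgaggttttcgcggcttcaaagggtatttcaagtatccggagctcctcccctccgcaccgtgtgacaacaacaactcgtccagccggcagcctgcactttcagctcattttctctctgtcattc
Dach1 site: cccctctcaatCTTTGATcaatgtacttg
The upstream bases were 70.8% G or C in Foxc1 and 54.8% in Dach1, against a median of 52.4% over all windows. On either strand of the 300-base windows, 5 motifs were searched. The letters CTTTGAT, the core bound by TCF/LEF factors of the Wnt pathway, were found once in Dach1 and in 3.73% of all 32851 windows. CANNTG, the E-box bound by helix-loop-helix proteins, was found once in Lmx1b and in 72.3% of windows. GCGTGGG, of the Wt1 and Egr type, had no match in these 4 windows and was in 5.04% of all. GTAAACA, the forkhead letters, and TAATTA, of the LIM-homeodomain type, had none either and were in 3.65% and 5.29% of all windows. The letters were chosen after the windows had been seen, and a match is a description of the sequence only.

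Signals are the deposited linear values. Their 2% trimmed mean was 500.0 on each array, so levels are relative to the total. Wnt4 at its brighter probe set read 406 and 272 on the Wnt4-null arrays, against 1885 and 1770 on the wild-type arrays, and it fell in the mutant (limma adjusted p = 0.000196). For the transferrin receptor control the ratio of 3' to 5' signal, a measure of RNA integrity, was 5.67 and 6.43 on the Wnt4-null arrays and 4.71 and 5.10 on the wild-type arrays, and for Gapdh it was 0.744 to 0.753 on the Wnt4-null arrays and 0.750 to 0.777 on the wild-type arrays. The part of RNA integrity in the results was not tested. Differences are Wnt4-null minus wild-type on the log2(signal + 16) scale, with folds from the same scale. SEs, intervals and p-values come from limma, which borrows spread from probe sets of like intensity. They therefore do not rest on the values of the named probe set alone. The adjusted p-values are from a fit over 27022 probe sets. Of those, 10.8% passed at an adjusted p of 0.05, 5.39% lower and 5.41% higher in the mutant. In whole kidneys, fewer cells of a type and less RNA per cell cannot be told apart.

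Of the 11 probe sets, 10 were bright enough to be tested, and 4 passed: both probe sets of Foxc1 rose in Wnt4-null kidneys and 2 of the 3 of Dach1 fell. That is 4 of 10 beside 10.8% of all tested probe sets. With 1 probe set per gene, Foxc1 rose, Dach1 fell and the other 4 genes did not pass, beside 12.5% of the 13432 tested genes (5.82% lower and 6.7% higher). The groups did not overlap at 8 of the 10 tested probe sets, beside 54.1% of all. No tested probe set of the 6 genes differed by 1 log2 unit or more, a size reached by 4.39% of all tested probe sets. The median difference over the 10 was -0.22, beside -0.01 over all, and the median absolute difference was 0.43 beside 0.22.

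**Figure D1:**
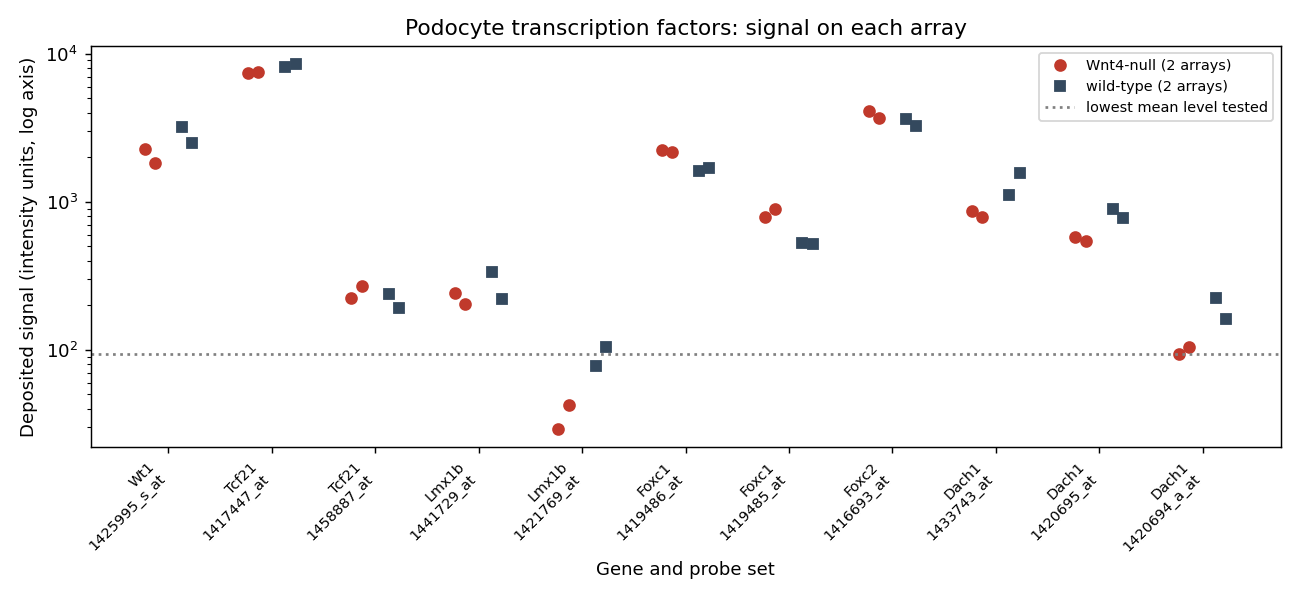
Deposited signal (log axis) of the 11 probe sets of the 6 genes on each of the 2 Wnt4-null arrays (circles) and 2 wild-type arrays (squares); the dotted line marks the lowest mean level tested, a signal of 94.2. The Wnt4-null points lie above the wild-type points for both Foxc1 probe sets and below them for all 3 Dach1 probe sets, and overlap for Tcf21 1458887_at and Lmx1b 1441729_at.

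Wt1 had 1 probe set, 1425995_s_at. Its signal was 2284 and 1839 on the Wnt4-null arrays, against 3195 and 2496 on the wild-type arrays. Both mutant values lay below both wild-type values, but the pools of each genotype also stood well apart from each other. The means were 2062 ± 315 in Wnt4-null and 2845 ± 494 in wild-type kidneys (SD, n = 2 each). The log2 difference was -0.46 ± 0.14 (SE), a 1.37-fold lower mean level that did not pass (limma adjusted p = 0.0831, unadjusted p = 0.0125), with a 95% interval from -0.79 to -0.13 before adjustment. Leaving out 1 array could change the call: without wild-type replicate 2 the difference was -0.64 (limma adjusted p = 0.00511), and without wild-type replicate 1 it was -0.28 (limma adjusted p = 0.185). The suffix of this probe set marks probes shared by several transcripts, and it cannot separate the splice forms of Wt1.

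Tcf21 was measured by a bright and a dim probe set. The bright one, 1417447_at, read 7358 and 7568 on the Wnt4-null arrays, against 8191 and 8494 on the wild-type arrays. Its mutant values lay just below the wild-type values, with little spread within a genotype. The difference was -0.16 ± 0.08 (SE), 1.12-fold, and did not pass (limma adjusted p = 0.233). Its 95% interval ran from -0.34 to 0.01, and with quantile normalization the difference was -0.07 (limma adjusted p = 0.576). The dim probe set, 1458887_at, read 223 and 271 on the Wnt4-null arrays, against 238 and 191 on the wild-type arrays, so the groups overlapped. There the difference was 0.19 (limma adjusted p = 0.658), of opposite sign to that at the bright probe set, with an interval from -0.32 to 0.71, and it ran from 0.05 without wild-type replicate 2 to 0.34 without wild-type replicate 1.

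Lmx1b had 2 probe sets, of which 1 was too dim to be tested. At 1441729_at the signal was 241 and 206 on the Wnt4-null arrays, against 334 and 220.1 on the wild-type arrays. One wild-type value lay between the mutant values, and the difference of -0.27 ± 0.25 (SE) did not pass (limma adjusted p = 0.557, interval -0.83 to 0.30). Its sign rested on 1 array, since the difference was 0.015 without wild-type replicate 1 and -0.55 without wild-type replicate 2. At 1421769_at the signal was 29.2 and 42.5 on the Wnt4-null arrays, against 77.3 and 105 on the wild-type arrays. Both mutant values were the lower ones there, and 3 of the 4 arrays read under 94.2, the lowest mean level tested. The difference at this dim probe set was -1.05, a 2.07-fold lower mean on the log2(signal + 16) scale, and when all probe sets were fitted with no filter it did not pass (limma adjusted p = 0.221, unadjusted p = 0.0336).

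Foxc1 was the member that rose. At 1419486_at the signal was 2225 and 2167 on the Wnt4-null arrays, against 1615 and 1704 on the wild-type arrays. At 1419485_at it was 783 and 895 on the Wnt4-null arrays, against 530.0 and 518 on the wild-type arrays. At either probe set the genotypes stood apart by more than the pools of a genotype did. The means at the brighter probe set were 2196 ± 40.9 in Wnt4-null and 1659 ± 62.9 in wild-type kidneys (SD, n = 2 each), a difference of 0.40 ± 0.09 (SE), 1.32-fold (limma adjusted p = 0.0282, interval 0.19 to 0.61). At the dimmer one the difference was 0.66 ± 0.13 (SE), 1.58-fold (limma adjusted p = 0.0168, interval 0.36 to 0.96). Leaving out a mutant array ended the call at the brighter probe set, with limma adjusted p = 0.188 without Wnt4-null replicate 1 and 0.139 without Wnt4-null replicate 2. At the dimmer one the call was lost without Wnt4-null replicate 2 (limma adjusted p = 0.128). Neither passed without the intensity trend (limma adjusted p = 0.158 and 0.0818). With arrays centred on their medians the brighter one did not pass and the dimmer one did (limma adjusted p = 0.140 and 0.0131).

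Foxc2, the close relative of Foxc1, read 4082 and 3694 on the Wnt4-null arrays at its probe set 1416693_at, against 3615 and 3238 on the wild-type arrays. The lower mutant value was only a little above the higher wild-type value. The difference of 0.18 ± 0.10 (SE), 1.13-fold, did not pass (limma adjusted p = 0.281), with an interval from -0.04 to 0.40. It was 0.10 without wild-type replicate 2 and 0.26 without wild-type replicate 1. Whether Foxc1 and Foxc2 differed in their response was examined within arrays, as 1 of 15 pairs of members. The log2 value of Foxc1 minus that of Foxc2 changed by 0.22 between genotypes without overlap. Of the 15 pairs, 11 likewise had no overlap, and the share over pairs of other genes was not computed. The exact permutation p for Foxc1 and Foxc2 was 0.333, two-sided. That is the smallest that 2 arrays against 2 allow, so this comparison could not have passed and cannot decide the question.

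Many markers of other mesenchyme and of skeletal muscle, though not all, were also higher on the Wnt4-null arrays, where Foxc1 was. Over all tested genes 6.7% were called higher and 5.82% lower, and the list counts here and below stand beside those shares. The lists were chosen with earlier results of these data known. In the stroma list 10 of 14 tested genes rose and 0 fell. The summed signal of its genes was 79082 to 80301 on the Wnt4-null arrays and 49203 to 52716 on the wild-type arrays. In a list of limb and body wall mesenchyme, cells in which the Foxc genes are also active, 3 of 5 tested genes rose (Prrx1, Twist1 and Twist2) and 0 fell. Its summed signal was 3696 to 3974 on the Wnt4-null arrays and 1777 to 1997 on the wild-type arrays. In the skeletal muscle list 7 of 9 rose and 0 fell, with sums of 8063 to 8421 on the Wnt4-null arrays and 1590.5 to 2574 on the wild-type arrays. Without the intensity trend 6 of the 10 stroma calls and 4 of the 7 muscle calls passed. No gene of these lists was listed at 0, and their part in the rise of Foxc1 was not tested.

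Dach1 was the member that fell. At 1433743_at the signal was 869 and 789.6 on the Wnt4-null arrays, against 1107 and 1573 on the wild-type arrays. At 1420695_at it was 580.5 and 547 on the Wnt4-null arrays, against 888 and 779 on the wild-type arrays. At 1420694_a_at it was 93.1 and 104 on the Wnt4-null arrays, against 225 and 161 on the wild-type arrays. All 3 probe sets had both mutant values below both wild-type values, and at 1433743_at the wild-type pools differed from each other more than the mutant pools did. The means at 1433743_at, the brightest, were 829 ± 56.1 in Wnt4-null and 1340.0 ± 329 in wild-type kidneys (SD, n = 2 each). Its difference was -0.66 ± 0.16 (SE), 1.58-fold lower (limma adjusted p = 0.0398, interval -1.04 to -0.28). At 1420695_at the difference was -0.55 ± 0.13 (SE), 1.46-fold lower (limma adjusted p = 0.0339). The dimmest, 1420694_a_at, had the largest difference of the 3, -0.85 ± 0.28 (SE), and did not pass (limma adjusted p = 0.100).

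The Dach1 calls were close to the threshold. The call at 1433743_at was lost without Wnt4-null replicate 1, without Wnt4-null replicate 2 and without wild-type replicate 2 (limma adjusted p = 0.0692, 0.137 and 0.0638). That at 1420695_at was lost without Wnt4-null replicate 1, without Wnt4-null replicate 2 and without wild-type replicate 1 (limma adjusted p = 0.107, 0.160 and 0.0804). Fitted with no filter on low signal, neither of these Dach1 probe sets passed (limma adjusted p = 0.0861 and 0.0567), nor without the intensity trend (0.172 and 0.115), and 1420695_at did not pass with arrays centred on their medians (0.0695). Of the markers of other cells that contain Dach1, 4 of 10 endothelial genes fell (Plvap, Cldn5, Emcn and Eng), 0 rose and 6 did not pass. The 6 were Flt1, Tek, Kdr, Cdh5, Tie1 and Pecam1, with differences of -0.48, -0.32, -0.26, -0.09, -0.04 and -0.01. Summed signals of the endothelial list were 8497 to 8709 on the Wnt4-null arrays and 11386 to 11963 on the wild-type arrays. Leaving out either one of the mutant arrays ended the calls of Emcn and Eng, and leaving out wild-type replicate 1 that of Eng (limma adjusted p = 0.0615 to 0.202). Without the intensity trend 1 of the 4 passed (Plvap), and Cldn5 had a limma adjusted p of 0.0622. Of 10 ureteric bud genes 1 fell (Calb1) and 2 rose (Krt8 and Krt18, neither of which passed with just 1 mutant array in the fit, limma adjusted p = 0.0687 to 0.329), with sums of 15014 to 15641 on the Wnt4-null arrays and 15531 to 16687 on the wild-type arrays. Calb1 and Krt8 passed at 1 of 3 tested probe sets each, and Eng at 1 of 2. No gene of these lists was listed at 0, and their part in the fall of Dach1 was not tested.

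**Figure D2:**
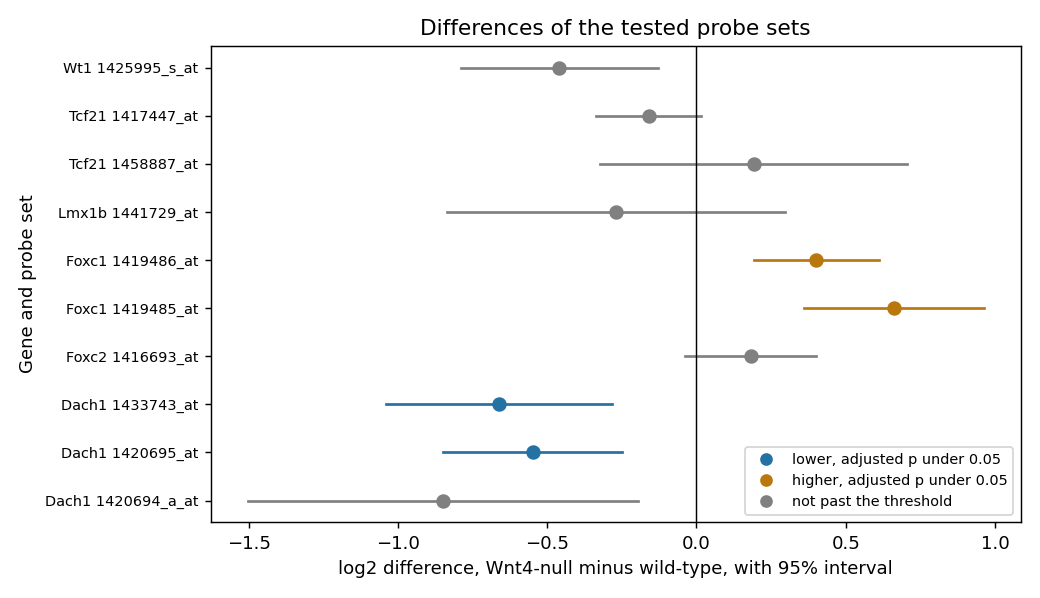
Log2 difference, Wnt4-null minus wild-type, of the 10 tested probe sets of the 6 genes, with unadjusted 95% intervals from limma. Both Foxc1 probe sets lie to the right of 0 and passed, and 2 of 3 Dach1 probe sets lie to the left and passed. The intervals of Wt1 and of Dach1 1420694_a_at leave out 0, but their adjusted p-values of 0.0831 and 0.100 did not pass.

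The genes whose profile over the 4 arrays was most like that of Foxc1, by Euclidean distance of log2 values centred on each gene's mean, were Phf20 and Pfn2, at distances of 0.011 and 0.024 among 13431 genes compared. Those most like Dach1 were Pllp and Bpnt1, at distances of 0.048 and 0.12. With 4 arrays such a likeness only describes these pools.

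Genes that carry out podocyte functions showed differences down to -1.98, beyond the lowest of the factors at a tested probe set (-0.85). Of 22 tested genes of the podocyte structure list 10 fell, 1 rose (Lamb2) and 11 did not pass, with a median difference of -0.25, beside 0.00 over all tested genes and 5.82% of genes lower. Podxl, which encodes the surface protein podocalyxin, read 643 and 730.4 on the Wnt4-null arrays, against 2658 and 2865 on the wild-type arrays. That is 3.96-fold lower (limma adjusted p = 5.52e-05). Nphs1, which encodes nephrin of the slit diaphragm, read 88.9 and 139 on the Wnt4-null arrays, against 368 and 337 on the wild-type arrays, 2.89-fold lower (limma adjusted p = 0.00850). The phosphatase gene Ptpro was 3.66-fold lower (limma adjusted p = 0.000545), and Dag1, which encodes the matrix receptor dystroglycan, 1.55-fold lower (limma adjusted p = 0.00246, with 2 of its 4 tested probe sets past the threshold). Without the intensity trend 6 genes of the list fell and 0 rose, and Dag1 did not pass (limma adjusted p = 0.0730). In the renal vesicle list 9 of 9 tested genes fell, with a median of -1.81. Without the intensity trend 8 of these 9 calls passed, and Ccnd1 did not (limma adjusted p = 0.134). Jag1 passed at 1 of 3 tested probe sets and Pou3f3 at 1 of 2. Whether the factors and the structural genes differed was not tested as such.

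Of the other transcription factors of podocytes, Hey1, a target of Notch signalling, read 506 and 509 on the Wnt4-null arrays, against 1219 and 1066 on the wild-type arrays, and fell 2.21-fold (limma adjusted p = 0.00112). Tead1, of the Hippo pathway, and the forkhead gene Foxd2 did not pass, with differences of 0.22 and 0.26 (limma adjusted p = 0.205 and 0.360). The list thus had 1 of 3 tested genes lower and 0 higher.

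Among 9 tested genes for partners that bind these factors or their families, 4 rose, 1 fell and 4 did not pass, with a median of 0.25. Tcf12 and Tcf4 encode E proteins, the class that pairs with helix-loop-helix factors such as Tcf21. Tcf12 read 6178 and 5695 on the Wnt4-null arrays, against 3902 and 3993 on the wild-type arrays, a log2 difference of 0.59 (limma adjusted p = 0.00379). Tcf4 was 1.27-fold higher (limma adjusted p = 0.0401), at 1 of its 6 tested probe sets, while Tcf3, the other E protein listed, did not pass (difference -0.08). Ldb2 and Ldb1 encode cofactors of LIM-homeodomain proteins such as Lmx1b. Ldb2 rose 1.59-fold (limma adjusted p = 0.00819) and Ldb1 did not pass (difference 0.23). Of the genes named for binding Wt1, Pawr rose 1.31-fold and Wtap fell 1.26-fold (limma adjusted p = 0.0461 and 0.0361), and Wtip did not pass (difference 0.10). Tcf12 and Ldb2 passed at 2 of 3 tested probe sets each and Wtap at 1 of 2. The calls of Wtap, Pawr and Tcf4 were lost with either one of the mutant arrays left out, that of Pawr also without wild-type replicate 2, that of Tcf4 without wild-type replicate 1 and that of Ldb2 without Wnt4-null replicate 1 (limma adjusted p = 0.0581 to 0.270), and none of the 5 passed without the intensity trend (0.0887 to 0.205). Eya1, a coactivator in the network of Dach proteins, did not pass (difference 0.25).

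Relatives of the factors moved in either direction: of 5 tested genes Foxd1 rose, Egr1 fell and 3 did not pass, with a median of 0.42. Foxd1, the forkhead gene of cortical stroma, read 6938 and 6715 on the Wnt4-null arrays, against 2028 and 2393 on the wild-type arrays, 3.08-fold higher (limma adjusted p = 7.39e-05). Egr1, a zinc finger gene related to Wt1 and induced by growth factors, was 1.57-fold lower (limma adjusted p = 0.0167, and 0.0774 without Wnt4-null replicate 1). Dach2, the paralogue of Dach1, read 352 and 321 on the Wnt4-null arrays, against 184 and 236 on the wild-type arrays, above the wild-type values on both mutant arrays and opposite in sign to Dach1. Its difference of 0.65 did not pass (limma adjusted p = 0.0864). Without the intensity trend Foxd1 still passed and Egr1 did not (limma adjusted p = 0.0195 and 0.113). The helix-loop-helix genes Msc and Tcf15 did not pass (differences 0.42 and 0.02), and Lmx1a and Tcf23 were below the level tested.

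Genes reported as targets of Wt1 were split. Of 8 tested, 3 fell (Podxl, Nphs1 and Spry1), 3 rose (Bmper, Sulf1 and Sulf2) and 2 did not pass, with a median of 0.13. Podxl and Nphs1 are also in the podocyte structure list. Spry1, which restrains growth factor receptor signals, read 1282 and 1235 on the Wnt4-null arrays, against 2931 and 2828 on the wild-type arrays, 2.27-fold lower (limma adjusted p = 0.000217). Bmper, a secreted modulator of BMP signals, was 1.90-fold higher, and Sulf1 and Sulf2, which trim sulphate from heparan chains, were 2.20-fold and 1.55-fold higher (limma adjusted p = 0.000866, 0.00961 and 0.0100). Sulf2 did not pass without Wnt4-null replicate 1 (limma adjusted p = 0.0679), nor Sulf1 and Sulf2 without the intensity trend (0.0935 and 0.117). Gas1 and Amhr2 did not pass, with differences of 0.23 and 0.04.

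Markers of the other cells that make these factors give their setting. In the nephron progenitor list, cells that contain Wt1, 3 of 11 tested genes fell, 3 rose and 5 did not pass, with a median of 0.12. Uncx, Cited1 and Itga8 fell (differences -1.36, -0.95 and -0.44, limma adjusted p = 0.000376, 0.00280 and 0.0256). Uncx also passed without the intensity trend (limma adjusted p = 0.0313). Traf1, Osr1 and Crym rose (differences 1.55, 0.82 and 0.69, limma adjusted p = 0.0244, 0.0102 and 0.0367). Without the intensity trend 1 of these 6 calls passed, and without Wnt4-null replicate 2 none of the 3 genes that rose did (Osr1, Crym and Traf1, limma adjusted p = 0.0625, 0.0596 and 0.136), although 3 of the 6 calls passed. Its summed signals were 17086 to 17267 on the Wnt4-null arrays and 20068 to 20551 on the wild-type arrays. The stroma list, cells that contain Tcf21, had a median of 0.69, and the lists of limb and body wall mesenchyme and of skeletal muscle had medians of 1.21 and 1.59. The endothelial and ureteric bud medians were -0.38 and -0.02. The gonad also contains Wt1 and Tcf21 and could be carried along in a dissection: of its 7 markers 3 were bright enough to be tested and 0 passed at either the adjusted or an unadjusted limma p of 0.05, with a median of -0.36. Summed gonad signals were 425 to 549.9 on the Wnt4-null arrays and 537 to 627 on the wild-type arrays. Of 4 tested neural genes 1 fell (Fabp7, which did not pass in any fit on 3 arrays, limma adjusted p = 0.101 to 0.128) and 0 rose, with a median of 0.07. No marker was listed at 0, and the part of these cells in the values of Wt1 and Tcf21 was not tested.

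**Figure D3:**
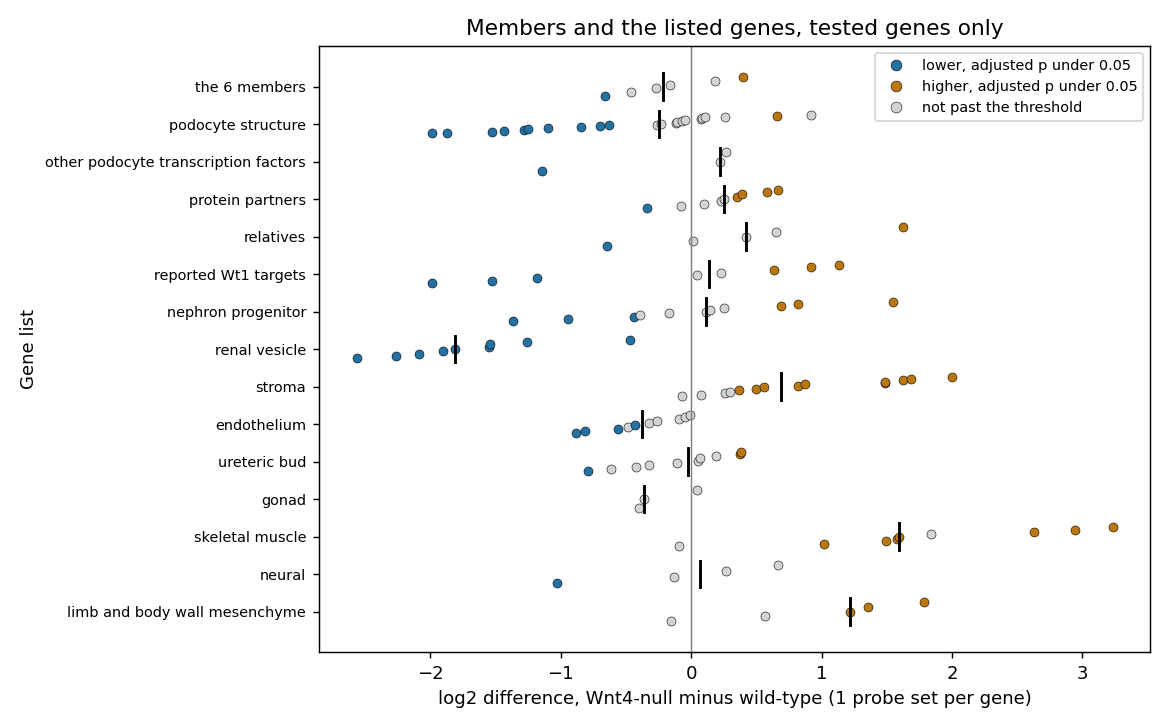
Log2 difference, Wnt4-null minus wild-type, of 1 probe set per gene for the 6 members and for every tested gene of 14 gene lists; colours mark genes that passed and the vertical bar is the list median. The members span -0.66 to 0.40, while podocyte structure genes reach -1.98, renal vesicle genes lie below 0 throughout and most stroma genes above it.

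**Figure D4:**
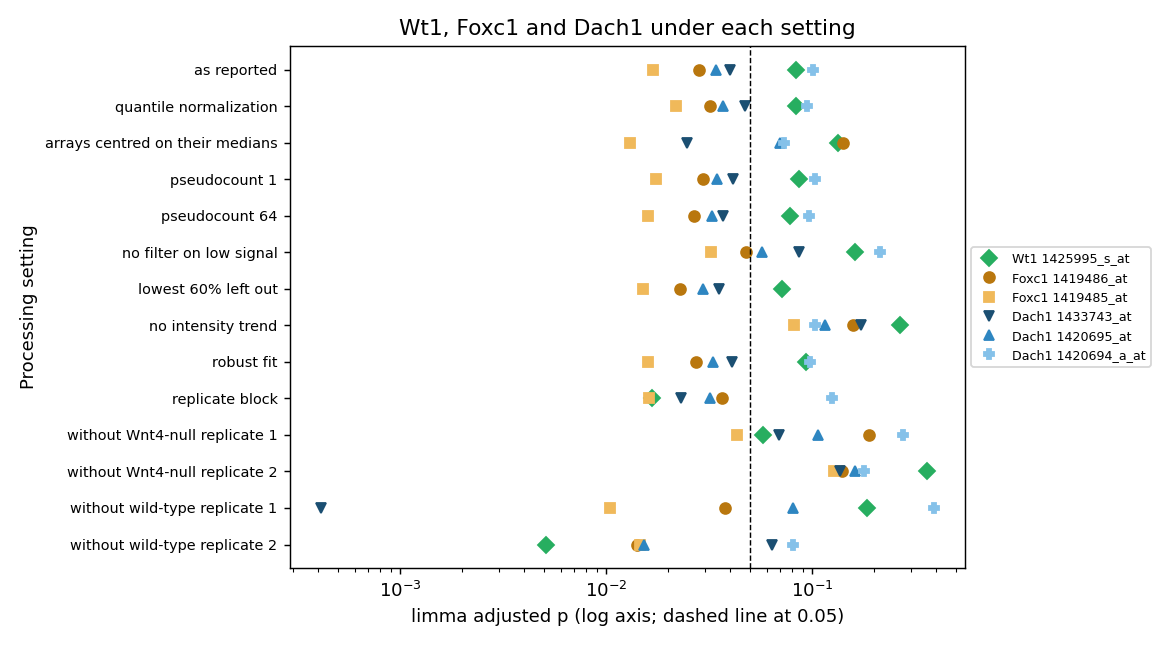
Limma adjusted p (log axis, dashed line at 0.05) of the probe sets of Wt1, Foxc1 and Dach1 as reported and under 13 other settings. Without the intensity trend and without Wnt4-null replicate 2, no point lies left of the line; Wt1 is left of it with the replicate block and without wild-type replicate 2.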

How the data were processed

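The authors deposited 1 linear signal intensity per probe set and array. GCOS is the only tool in the submitters' processing notes, and the sources used here give no version, summary algorithm or scaling target. Per the labels' protocols, RNA of pooled kidneys was amplified in 1 round and labelled with biotin. Detection calls were not used here.

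Signals were transformed to log2(signal + 16) with no further normalization. The 64 control probe sets and the lowest 40% by mean were left out (lowest mean kept, a signal of 94.2). A 2-group model was fitted with limma 3.58.1 in R 4.3.3 (lmFit, eBayes with an intensity trend, prior degrees of freedom 6.16), two-sided, with Benjamini-Hochberg adjustment over 27022 probe sets and a threshold of 0.05. The script was tested on simulated data. A gene was represented by its brightest tested probe set. Of 45101 probe sets, 34958 named 1 gene, 932 several and 9211 none here.

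The members and lists were chosen with earlier results of these data known. Genes named were the members, Wnt4, all genes of the small lists (other podocyte factors, partners, relatives), up to 4 per other list by smallest p, and the 2 genes most like each member that passed; others were named after their values were seen. Lists are described by counts and medians only. Alternatives were other normalizations, pseudocounts of 1 and 64, other filters, other variance models, the replicate number as a block, gene means, leaving out probe sets ending in _x_at or _s_at, and leaving out each array. The number of arrays limits the precision.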

Additional observations from a re-analysis of the deposited data

How the results depend on the processing

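With quantile normalization, pseudocounts of 1 and 64, the lowest 60% left out or a robust fit, the counts of member probe sets and member genes past the threshold were 4 and 2, as reported. With arrays centred on their medians 2 member probe sets passed, Foxc1 1419485_at and Dach1 1433743_at (differences 0.68 and -0.65, limma adjusted p = 0.0131 and 0.0245). With 1 probe set per gene, 1 member gene (Dach1) passed there, and the Foxc1 difference at 1419486_at was 0.42 (limma adjusted p = 0.140). With no filter on low signal 2 probe sets and 1 gene (Foxc1) passed, and Dach1 at 1433743_at, still -0.66, did not. Without the intensity trend limma called 858 probe sets in all, 6 podocyte structure genes, 0 member probe sets (5 at an unadjusted p under 0.05) and 0 member genes (2 unadjusted); Foxc1 was then 0.40 and Dach1 -0.66, with adjusted p = 0.158 and 0.172. When 1 array was left out, the count ran from 1479 to 3927 probe sets, 0 to 4 member probe sets, 0 to 2 member genes and 8 to 11 podocyte structure genes; the 0 for member probe sets was without Wnt4-null replicate 2 (5 at an unadjusted p under 0.05). The differences then ran from 0.36 to 0.44 for Foxc1 at 1419486_at, from -0.91 to -0.41 for Dach1 at 1433743_at and from -0.64 to -0.28 for Wt1. The spread without a mutant array comes from the wild-type arrays alone, and the lone array is assumed to vary like them. Replicate numbers did not pair the arrays (correlation of same-numbered deviations -0.02); with the number as a replicate block 2913 probe sets, 5 member probe sets, 3 member genes and 11 podocyte structure genes passed, and Wt1, at -0.46, had an adjusted p of 0.0166. The cause of these changes was not tested. At Lmx1b 1421769_at the mean signal was below the lowest level tested.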
